A study of Mus musculus with 39 samples.

Results

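The subunits of the oxidative phosphorylation machinery that are encoded in the nucleus were examined in dura mater and masseter of wild-type mice. Genes were taken by symbol: those beginning Nduf followed by a, b, c, s or v and a digit, Sdha to Sdhd, and those beginning Uqcr, Cox4 to Cox8 or Atp5, leaving out names that end in -ps and a number. The rule found 84 genes of 23412 in the files. Complex I had 37 of them, complex II 4, complex III 8, complex IV 18 and complex V 17. All 84 matched a RefSeq gene, and they lay on 19 chromosomes. RefSeq now carries Atp5f1 as Atp5pb, Atp5s as Dmac2l and Atp5sl as Dmac2. The last pair kept an Atp5 name without coding for ATP synthase subunits.

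The study modelled referred pain with collagenase type I, which digests the collagen of connective tissue, put into a jaw muscle. Dura, the outermost layer of the meninges, was taken at day 2. Of its libraries, 12 followed 10 U of collagenase given to the temporal muscle and 4 followed saline there. The other 6, with naive in their titles, carry the treatment label saline with no site. They are numbered F1 to F3 and M1 to M3, a split that was not fitted. Masseter, which closes the jaw, had been injected 4 times with 0.2 to 0.5 U of collagenase in 3 libraries of day 38 and 3 of day 52. In 3 masseter libraries of day 28 those doses had gone to the temporal muscle instead. Its controls had saline in the masseter itself, 4 libraries of day 28 and 4 of day 38. Day 52 had no saline libraries, and temporal saline was given to none of the masseter groups. The labels do not say that the libraries came from separate animals, so every p-value measures the spread between these samples.

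The respiratory chain sits in the inner mitochondrial membrane. Complex I oxidises NADH and complex II oxidises succinate, both passing electrons to ubiquinone, from which complex III hands them to cytochrome c and complex IV to oxygen. Complexes I, III and IV pump protons, and complex V, the ATP synthase, uses the returning protons to make ATP. Most subunits come from nuclear genes, and complex IV has subunits with tissue isoforms. Heart and skeletal muscle use Cox6a2, Cox7a1 and Cox8b where other tissues use Cox6a1, Cox7a2 and Cox8a. The subunits encoded in mitochondrial DNA were not analysed here.

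The muscle isoforms gave the widest contrasts in these libraries, so the start-site regions of 2 isoform pairs are shown. RefSeq promoters of build GRCm38.p6, from 250 bases before to 50 after the gene start, were at hand for 69 of the 84 genes, Cox6a2 not among them. Capitals mark any match, on either strand, to the NRF1 core GCATGCGC, the ETS core CCGGAAG, the ERR half-site AAGGTCA or the E-box CANNTG. The 4 regions are Cox7a1 at chr7:30183921-30184220 on the plus strand, Cox7a2 at chr9:79759804-79760103, Cox8b at chr7:140900397-140900696 and Cox8a at chr19:7217567-7217866, these 3 on the minus strand.
Cox7a1: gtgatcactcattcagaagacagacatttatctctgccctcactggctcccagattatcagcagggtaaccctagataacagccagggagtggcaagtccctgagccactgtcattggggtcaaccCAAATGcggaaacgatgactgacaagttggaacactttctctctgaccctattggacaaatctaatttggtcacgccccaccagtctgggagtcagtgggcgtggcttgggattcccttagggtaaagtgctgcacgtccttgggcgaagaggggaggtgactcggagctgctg
Cox7a2: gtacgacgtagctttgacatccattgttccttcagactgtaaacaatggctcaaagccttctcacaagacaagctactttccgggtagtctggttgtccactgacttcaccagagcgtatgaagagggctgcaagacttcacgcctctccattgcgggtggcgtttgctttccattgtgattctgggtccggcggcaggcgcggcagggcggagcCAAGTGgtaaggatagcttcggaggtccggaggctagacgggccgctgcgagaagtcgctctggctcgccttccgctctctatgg
Cox8b: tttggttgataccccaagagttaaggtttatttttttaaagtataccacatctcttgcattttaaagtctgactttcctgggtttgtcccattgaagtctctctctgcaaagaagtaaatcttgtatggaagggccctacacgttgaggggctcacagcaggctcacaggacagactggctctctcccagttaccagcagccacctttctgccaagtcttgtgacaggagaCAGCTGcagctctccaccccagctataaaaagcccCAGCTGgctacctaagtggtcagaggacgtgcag
Cox8a: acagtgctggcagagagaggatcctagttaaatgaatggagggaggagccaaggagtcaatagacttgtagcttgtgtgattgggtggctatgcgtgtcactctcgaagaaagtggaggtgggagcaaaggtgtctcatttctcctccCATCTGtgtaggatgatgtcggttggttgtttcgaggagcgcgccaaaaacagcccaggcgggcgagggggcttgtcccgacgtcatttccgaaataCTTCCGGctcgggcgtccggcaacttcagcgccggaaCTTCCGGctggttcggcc
The Cox8b window held 2 E-boxes and the Cox7a1 window 1. The Cox8a window held 2 ETS cores and 1 E-box, and the Cox7a2 window 1 E-box. Over all 69 promoters, 10 members (14.5%) held the NRF1 core, against 3.05% of 27025 RefSeq genes. The ETS core was in 16 members (23.2%) against 9.93%, the ERR half-site in 8 (11.6%) against 5.38%, and the E-box in 49 (71.0%) against 75.0%. NRF1, the ETS factor GABP and the ERR receptors are known regulators of respiratory chain genes. A match describes letters only and is not evidence of binding.

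Members were short transcripts. Their median length was 655 bases (292 to 2859), and 60 of 84 (71.4%) were under 1000 bases, against 14.8% of the 20945 genes with counts, whose median was 2370 bases. Libraries came in 2 read layouts, told apart by the gap between a gene's length and its effective length (the number of positions a fragment can start at): 14 were single-end and 25 paired-end. All 12 collagenase dura libraries were paired-end and all 10 control dura libraries single-end. In masseter the saline libraries of day 28 were single-end and all others paired-end. Treatment and layout therefore cannot be told apart in dura, nor day and layout between the masseter saline groups. The ratio of single-end to paired-end effective length ran from 1.07 to 2.73 over the members, highest for Atp5k, the subunit e of ATP synthase, so a layout change alone can move a count or a TPM (RSEM's transcript level per length, scaled to the same total in every library) of these genes. Member results that cross layouts are given on the counts. Where single-end and paired-end groups are compared, numbers of members called are also given with effective length as an offset, and with a trend on length removed. Lists of other genes were read on the counts only.

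Several libraries stood apart. Among the collagenase dura libraries, numbers 4, 8 and 7 had summed CPM (counts scaled to library size) over 10 skeletal muscle markers of 53730, 18550 and 6186, against 111.9 to 418.4 in the other 9. The dura libraries with temporal saline had 117.5 to 266.7 CPM, and those with saline at the unnamed site 19.32 to 33.38 CPM. Neuronal markers (6 genes) summed to 5498 and 5142 CPM in libraries 1 and 7, against 173.5 to 1065 in the other 10 and 280.8 to 938.3 in the controls. Pituitary hormone genes summed to 1288 CPM in library 6 and to at most 107.3 in the others. Erythroid genes summed to 3.599 to 49.11 CPM in the collagenase dura and 823.9 to 2381 in the controls. Fibroblast and dura markers were present in every dura library, at 3507 to 33980 CPM. In masseter the day 28 saline libraries had 4046 to 8673 CPM of slow and oxidative fibre markers, against 117.4 to 275.5 at day 38. Depth ran from 12.1 M to 32.3 M counts per library. In bulk tissue, fewer cells of a type and less RNA per cell cannot be told apart.

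The difference between tissues was taken between single-end libraries, masseter after saline at day 28 and dura after saline in the temporal muscle. Subunits of every complex were higher in masseter, and 3 muscle isoforms of complex IV differed most. Of 82 members with enough counts to test, 75 were called higher and 4 lower (edgeR quasi-likelihood test, adjusted p under 0.05), where 78.4% of all 16156 genes were called. The median log2 difference was 2.33 for members and -0.06 for all genes. By complex, 34 of 37 members rose in complex I (median 2.24), 4 of 4 in complex II (2.40), 8 of 8 in complex III (2.53), 12 of 16 in complex IV (2.21) and 17 of 17 in complex V (2.32). On TPM the median difference was 1.32 for members and -0.81 for all genes, with 71 higher and 8 lower, so that the scale set by all genes moved while the gap between members and all genes stayed above 2 log2 units. Cox8c and Cox7b2, isoforms of restricted expression, were the members not tested, with at most 1 and 6 counts in any library.

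Cox6a2 was at 1815, 1433, 2107 and 2218 TPM in the masseter libraries and at 3.74, 3.59, 5.40 and 6.73 TPM in the dura libraries. Its log2 difference was 9.60 ± 0.31 (SE; adjusted p 1.33e-11). The groups did not overlap. Cox7a1 stood at 2001, 1468, 2101 and 2275 TPM against 32.24, 36.48, 33.46 and 22.49 TPM, a log2 difference of 7.00 ± 0.27 (adjusted p 4.45e-11). Cox8b stood at 2292, 1840, 2399 and 2483 TPM against 27.71, 40.0, 24.82 and 16.93 TPM, a log2 difference of 7.39 ± 0.65 (adjusted p 1.23e-07). For these 2 genes too, every masseter library was above every dura library.

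The partner isoforms went the other way, or rose less. Cox6a1 was at 194.9, 308.6, 121.3 and 271.6 TPM in masseter and 902.3, 1003, 954.6 and 906.0 TPM in dura, a log2 difference of -1.11 ± 0.18 (adjusted p 5.21e-05). Cox8a was at 221.1, 325.1, 143.9 and 270.6 TPM in masseter and 1721, 1212, 1485 and 1105 TPM in dura, a log2 difference of -1.55 ± 0.19 (adjusted p 3.02e-06). Both were lower in every masseter library. Cox7a2 was higher in masseter, by 1.68 ± 0.14 (adjusted p 6.01e-08). As a share of the isoform pair's TPM, Cox6a2 made up 89.1% ± 5.1 (SD, n = 4) in this masseter group and 0.52% ± 0.17 (n = 4) in the dura, Cox7a1 79.1% ± 2.0 and 8.98% ± 2.1, and Cox8b 90.2% ± 3.9 and 1.98% ± 0.81.

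**Figure D1:**
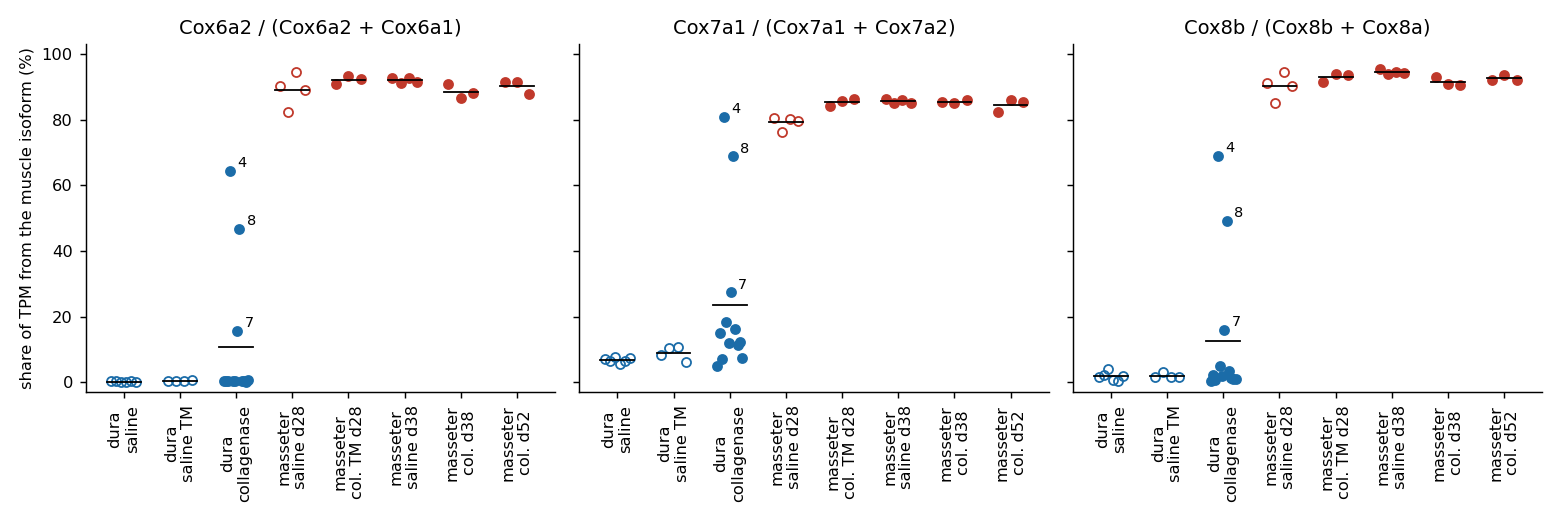
Share of TPM (%, vertical axis) that the muscle isoform took of each complex IV isoform pair, by library. Points are libraries, lines are group means, open points are single-end and filled points paired-end libraries, with dura in blue and masseter in red; TM is temporal muscle and col. collagenase. Masseter libraries sat between 76.1% and 95.4% in the 3 pairs, and the collagenase dura libraries 4, 8 and 7 stood above the other dura libraries in each pair.

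Other subunits differed by less. Uqcrfs1, the Rieske iron-sulfur protein of complex III, was at 780.9, 671.8, 839.8 and 901.8 TPM in masseter and 131.7, 99.57, 91.82 and 110.9 TPM in dura, a log2 difference of 3.89 ± 0.18. Cox5a, a subunit of complex IV, differed by 3.97 ± 0.21. Atp5b, the catalytic beta subunit of ATP synthase, was at 4046, 3286, 4069 and 4365 TPM in masseter and 1323, 1368, 1212 and 1371 TPM in dura, a log2 difference of 2.59 ± 0.15. The 4 succinate dehydrogenase subunits, from the flavoprotein Sdha to the membrane anchors Sdhc and Sdhd, were 2.28 to 2.78 log2 units higher. Each of these genes passed the test, and for Uqcrfs1 and Atp5b every masseter library was above every dura library.

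Not every member followed. Cox6b2, known in other work as a testis isoform of the complex IV subunit 6b, was the reverse: it was at 132.8, 115.4, 138.0 and 114.1 TPM in dura and 2.04, 2.07, 1.79 and 2.41 TPM in masseter, a log2 difference of -4.90 ± 0.14 (adjusted p 8.64e-12). Cox4i2, the isoform of subunit 4 that is known from lung and from pericytes, did not pass at -0.21 ± 0.17 (adjusted p 0.253). Ndufa4l2, a hypoxia-inducible relative of Ndufa4, was at -0.02 ± 0.14 (adjusted p 0.888), and Ndufv3, an accessory subunit of the NADH-oxidising arm of complex I, at -0.14 ± 0.12 (adjusted p 0.293). On TPM the group means of all of these were lower in masseter. They were 11.79 against 27.11 for Cox4i2, 25.89 against 52.79 for Ndufa4l2 and 365.6 against 742.5 for Ndufv3, so their lack of difference holds on the counts only. Ndufs5 was the remaining member called lower on the counts. Its counts are described at the end.

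**Figure D2:**
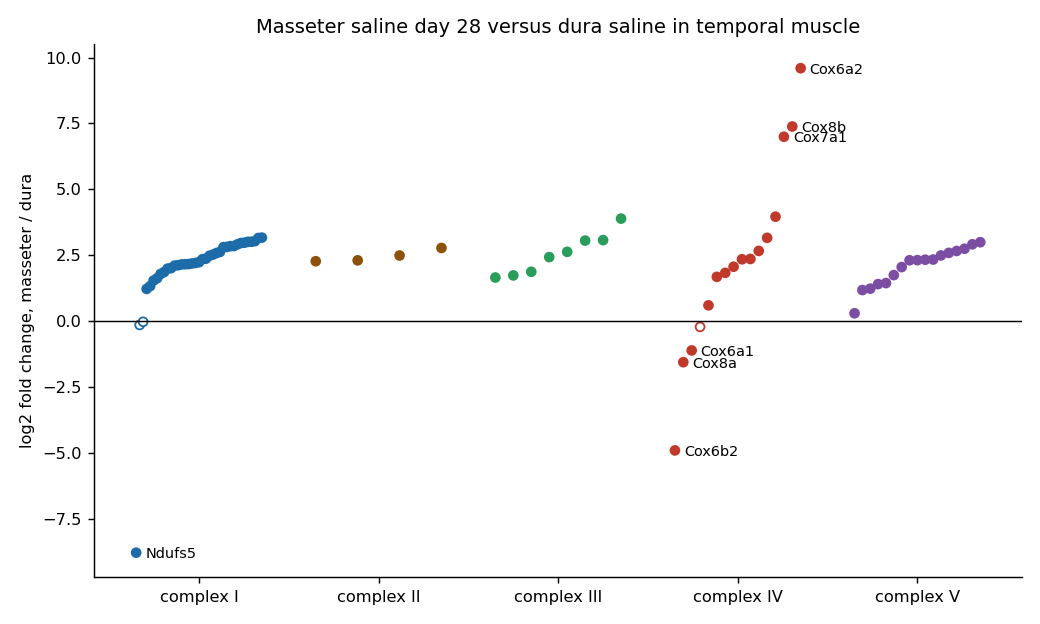
Log2 difference between masseter after saline at day 28 and dura after saline in the temporal muscle (vertical axis, positive is higher in masseter) for 82 members, in columns by complex and ordered within each. Filled points passed an adjusted p of 0.05; Cox6a2, Cox8b and Cox7a1 lie above and Cox6b2 and Ndufs5 below the band that holds the other members.

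Genes of neighbouring pathways were read from lists chosen by pathway. Between the same groups, 17 of 17 genes of the tricarboxylic acid cycle, 36 of 38 assembly factors, 13 of 15 regulators of mitochondrial biogenesis and 16 of 17 genes of fatty acid oxidation were called higher in masseter. Median log2 differences were 2.80, 1.34, 1.85 and 2.37, and for 37 cytosolic ribosomal protein genes 0.52. Of all genes 78.4% were called between these groups, counting both directions.

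In the masseter saline group of day 38 the members took 8.02% to 9.27% of all TPM, and in the dura control groups 2.61% to 3.47%. Atp5k (3439 TPM), Cox8b (3427), Ndufa4 (3056), Atp5b (2980) and Cox7c (2943) had the highest group means in that masseter group. Ndufa4 is counted here under complex I by its name, although it is now placed with complex IV. Levels of different genes are set side by side only as TPM. The median coefficient of variation of CPM over the members was 5.5% in this group, 13.6% in the day 28 saline group and 28.2% in the collagenase dura, where Cox6a2 reached 220.1%.

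Collagenase in the temporal muscle was compared with saline in the temporal muscle in dura. On the counts, 1 member was called higher and 13 lower, which is 17.1% of the 82 tested, where 24.4% of all 16363 genes were called. The median log2 difference was 0.05 for members and 0.06 for all genes. Members called lower were Ndufa13, Ndufv3 and Ndufa4l2 of complex I, Uqcr11, Uqcrb and Uqcrh of complex III, Cox6a1, Cox6b2, Cox7a2l and Cox8a of complex IV, and Atp5d, Atp5h and Atp5s, none of complex II. Ndufs5 was the member called higher. Against dura after saline at the unnamed site, 5 members were called higher and 10 lower, where 36.7% of all genes were called. With effective length as an offset this became 33 higher and 4 lower, where 31.7% of all genes were called. With the length trend removed it was 35 higher and 2 lower, where 29.2% were called, so the direction of the count turned. The 2 comparisons share the 12 collagenase libraries. Members called lower against both control groups were Atp5s, Cox6a1, Cox6b2, Cox7a2l, Ndufa13, Ndufa4l2 and Uqcrh, and no member was called higher against both.

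Ndufa13, an accessory subunit of the membrane arm of complex I also known as GRIM-19, was at 174.2, 226.8, 208.7 and 206.5 CPM with temporal saline. It was at 146.2, 176 and 190.3 CPM (lowest, median, highest) after saline and at 96.46, 113.3 and 173.1 CPM after collagenase. No collagenase library reached the lowest library given saline in the temporal muscle, though the range met that of the other saline group. The log2 differences were -0.78 ± 0.12 (adjusted p 7.22e-05) and -0.52 (adjusted p 0.00108).

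Cox6b2 was at 27.59, 23.75, 28.49 and 23.47 CPM with temporal saline, at 20.53, 25.49 and 26.74 CPM (lowest, median, highest) with the other saline, and at 4.203, 13.08 and 18.66 CPM after collagenase. Every collagenase library was below every control library. The log2 differences were -1.09 ± 0.27 (adjusted p 0.00538) and -1.03 (adjusted p 0.00298). Ndufa4l2 was at 20.4, 20.17, 30.38 and 24.86 CPM, at 24.96, 26.36 and 27.11 CPM, and at 7.02, 14.8 and 25.5 CPM in the same order, and the collagenase range met that of both controls. Its log2 differences were -0.68 ± 0.23 (adjusted p 0.0334) and -0.80 (adjusted p 0.00478).

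Ndufv3 fell by 0.83 on the log2 scale (adjusted p 3.93e-04) against temporal saline and stood at -0.28 (adjusted p 0.101) against the other saline group. On the counts Cox6a1 fell by 0.44 (adjusted p 9.44e-04) and 0.29 (adjusted p 0.0061), but with the offset it stood at 0.06 (adjusted p 0.634) and was called higher at 0.22 (adjusted p 0.0444). Cox7a2l, which joins complexes III and IV in supercomplexes, fell by 0.42 (adjusted p 0.00247) and 0.34 (adjusted p 0.004) on the counts. It stood at -0.29 (adjusted p 0.034) and -0.19 (adjusted p 0.073) with the offset. With the trend removed it stood at -0.16 (adjusted p 0.276) and -0.01 (adjusted p 0.96). Uqcrh, the hinge protein of complex III, fell by 0.43 (adjusted p 0.026) and 0.32 (adjusted p 0.0424) on the counts and stood at 0.05 (adjusted p 0.823) and 0.17 (adjusted p 0.277) with the offset. Against saline at the unnamed site, Ndufa7, Cox4i2 and Atp5j were also called lower on the counts, at -0.50, -0.69 and -0.32. With the offset they stood at 0.10, -0.39 and -0.04, and none was called. Called higher there were Ndufa12, Ndufs1 and Cox7c, at 0.43, 0.46 and 0.41, and 2 muscle isoforms.

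The muscle isoforms moved with the 3 libraries that held muscle transcripts. Cox6a2 differed by 6.16 ± 1.78 (adjusted p 0.0123) and Cox7a1 by 2.56 ± 0.98 (adjusted p 0.046) against saline at the unnamed site. In libraries 4, 8 and 7, Cox6a2 was at 1122, 725.1 and 209.4 TPM, which is 55.7%, 36.0% and 10.4% of its mean in the masseter of day 38 saline. Ckm, the muscle creatine kinase, was at 34.5%, 11.5% and 4.08% of its masseter mean in those libraries. In the other 9 collagenase libraries Cox6a2 was at 1.88 to 7.08 TPM and Ckm at 0.0565% to 0.238% of the masseter mean. Without libraries 1, 4, 6, 7 and 8, Cox6a2 stood at 0.59 (adjusted p 0.1) and Cox7a1 at 0.12 (adjusted p 0.752), and neither was called. With the offset and without those libraries, both were called, Cox6a2 at 0.95 (adjusted p 0.0154) and Cox7a1 at 1.04 (adjusted p 0.00925). With the trend removed Cox6a2 was at 0.94 (adjusted p 0.0167) and Cox7a1 at 0.56 (adjusted p 0.122). All these differences are from saline at the unnamed site. With temporal saline as the control and the same libraries left out, neither isoform was called in any of these settings. Cox6a2 then stood at -0.52 on the counts, -0.16 with the offset and -0.26 with the trend removed. Cox7a1 stood at -0.14, 0.78 and 0.16 in the same order.

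Leaving out those 5 libraries also moved the count of members called. Against saline in the temporal muscle 31 members were then called lower and 1 higher, with a median of -0.20, where 31.8% of all genes were called. Against the other saline group 34 were lower and none higher, with a median of -0.20, where 38.9% of all genes were called. All 13 and all 10 members called lower with every library were among them. Summed over all members, the 12 collagenase libraries ran from 9035 to 20420 CPM, with the highest totals in library 4 (20420 CPM) and library 8 (16310 CPM). The saline libraries of the temporal muscle ran from 11570 to 12380 CPM. With saline at the unnamed site, F1 to F3 had 12050, 12770 and 12350 CPM and M1 to M3 had 10720, 9853 and 11720 CPM.

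Handling of transcript length moved the direction. With effective length as an offset and all 12 libraries, 23 members were called higher and 4 lower against saline in the temporal muscle, with a median of 0.28, where 21.2% of all genes were called. With the length trend removed it was 14 higher and 3 lower, with a median of 0.33, where 19.5% were called. Without the 5 libraries it was 22 higher and 11 lower with the offset (median 0.10, 28.2% of all genes called) and 14 higher and 12 lower with the trend removed (median 0.01, 26.4% called). The Spearman correlation of the members' log2 differences with length was -0.05 on the counts and -0.59 with the offset, described over 82 members that share the same libraries. On the counts, members under 1000 bases had a median of 0.02 and longer members 0.09, while over all genes the medians were -0.24 and 0.08. Cox6b2 and Ndufa13 were lower against saline in the temporal muscle under all 6 of these settings, and Cox6b2 and Ndufa4l2 against the other saline group. Cox6b2 then ranged from -1.09 to -0.55 and Ndufa13 from -0.90 to -0.54. The part that layout plays in these differences cannot be told apart from treatment.

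**Figure D3:**
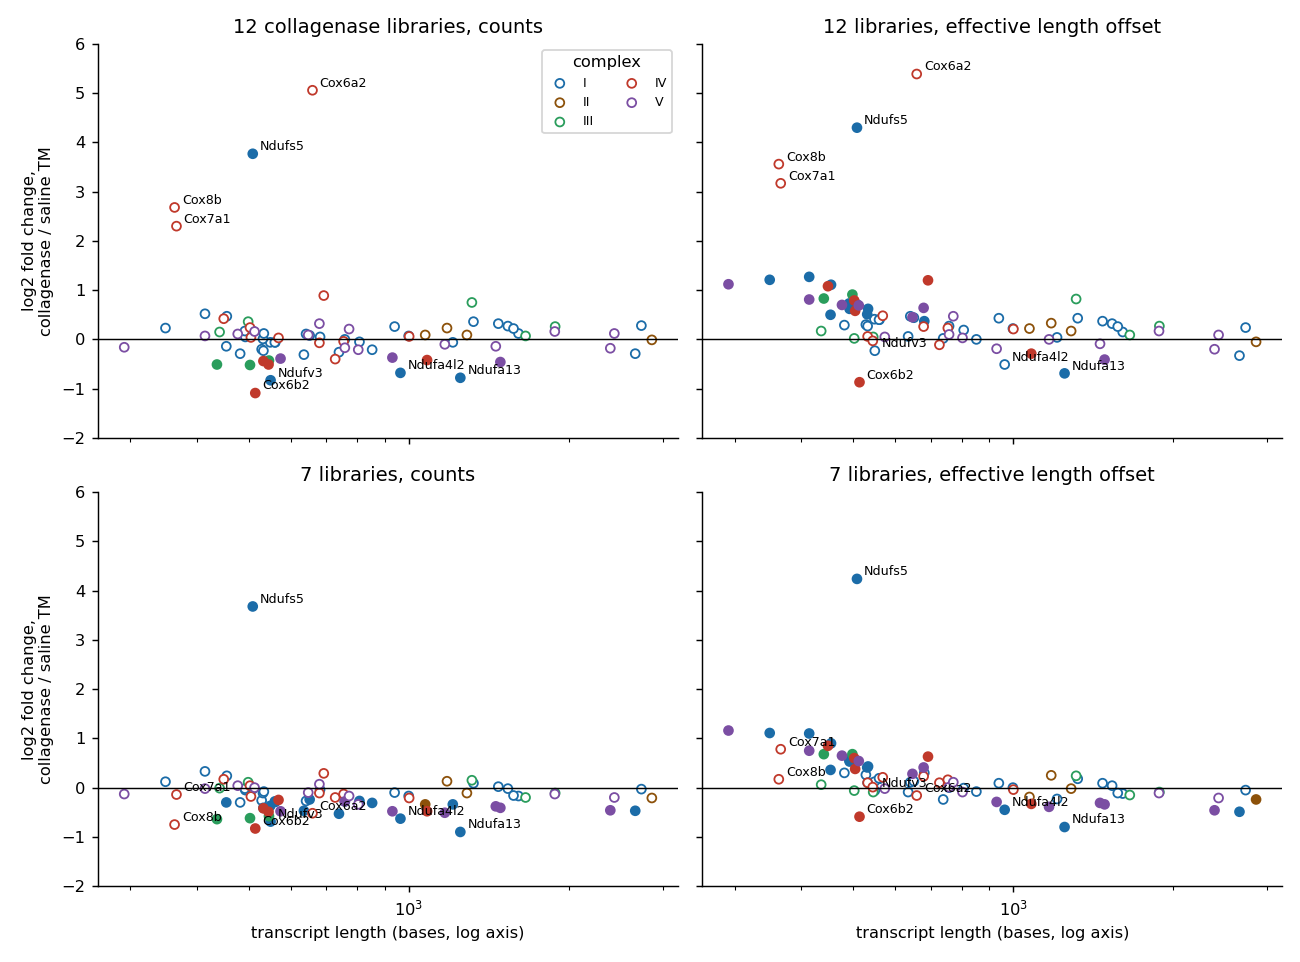
Log2 difference between dura after collagenase and after saline in the temporal muscle (vertical axis) against transcript length in bases (log axis) for 82 members, coloured by complex, filled where the adjusted p was under 0.05. The upper panels use 12 collagenase libraries and the lower panels leave out libraries 1, 4, 6, 7 and 8; the left panels use counts and the right panels effective length as an offset, where the shortest members move up while Cox6b2 and Ndufa13 stay below 0.

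Between dura after saline at the unnamed site and dura with temporal saline, edgeR called no member, where 4.25% of all genes were called. At an unadjusted p under 0.05 there were 5 members, and the share of all genes at that p was not computed. DESeq2 called 2 members, where it called 9.69% of all genes. A fit of these groups alone called 4 higher and 6 lower, where it called 29.4% of all genes. Both groups were single-end. The median log2 difference was -0.06 for members and -0.01 for all genes.

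Related lists in dura were read on the counts only, against saline in the temporal muscle, where 24.4% of all genes were called. Among 15 regulators of mitochondrial biogenesis 5 were called higher and none lower, among them the coactivator Ppargc1b at 1.00 (adjusted p 0.00145) and Gabpa, a subunit of the ETS factor GABP, at 0.36 (adjusted p 0.00539). Among 38 assembly factors 7 were higher and 5 lower. The copper chaperone Cox11 stood at 0.84 (adjusted p 5.49e-05) and the haem-related factor Surf1 at -0.52 (adjusted p 3.15e-06). Of 17 genes of the tricarboxylic acid cycle 1 was higher, Dlat at 0.66 (adjusted p 0.0346), and of 17 genes of fatty acid oxidation none was called and none had an unadjusted p under 0.05. Of 38 ribosomal protein genes, short transcripts like the members, 4 were higher and 8 lower.

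Within dura, the 5 members most like the mean member in Spearman correlation of log2(TPM + 1) over 22 libraries were Ndufa4 (0.97), Uqcrq (0.927), Atp5l (0.924), Cox7c (0.906) and Atp5g3 (0.904). The most unlike were Ndufa4l2 (-0.656), Cox6b2 (-0.623), Cox4i2 (-0.509) and Atp5s (-0.508). These libraries share treatment, layout and depth differences, so the values are descriptions.

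In masseter, collagenase in the masseter was compared with saline at day 38, all paired-end. No member was called at day 38 by edgeR, where 0.867% of 14652 genes were called. At an unadjusted p under 0.05 there were 6 members, all of complex IV. Shares of all genes at that unadjusted p were not computed, here or in the masseter comparisons below. DESeq2 called 1 member, where it called 4.92% of all genes. The median log2 difference was -0.04 for members and 0.01 for all genes, and 54 of 82 were below 0. Cox8a was at 40.35, 49.1, 39.95 and 39.09 CPM after saline and at 47.39, 68.39 and 62.16 CPM after collagenase, a log2 difference of 0.49 ± 0.19 (adjusted p 0.204). Cox6a1 was at 32.68, 43.03, 31.39 and 36.43 CPM after saline and at 39.43, 62.22 and 52.29 CPM after collagenase, a difference of 0.52 ± 0.24 (adjusted p 0.281). The groups overlapped in both. The second collagenase library, highest for both genes, had 97.3 CPM of the brown adipocyte markers Ucp1 and Cidea, against 0.7463 and 0.9087 CPM in the other collagenase libraries and 1.068 to 2.326 CPM after saline; their part in these values was not tested. The muscle isoforms made up 88.5% ± 2.2 of the Cox6a pair (SD, n = 3) after collagenase and 91.9% ± 0.79 (n = 4) after saline, and 91.4% ± 1.4 and 94.4% ± 0.63 of the Cox8 pair. Slow fibre genes moved beside this: Tnni1, Tnnc1 and Tnnt1 were called higher at 4.20, 2.57 and 2.33, and the marker sum was 331.1 to 717.2 CPM against 117.4 to 275.5. Their part in the isoform values was not tested.

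At day 52 after collagenase, edgeR called 1 member against saline of day 38, where 0.758% of all genes were called. It was Cox4i2. DESeq2 called 11 members lower, where it called 4.18% of all genes. The median log2 difference was -0.18 for members and 0.01 for all genes, 74 of 82 were below 0, and 29 had an unadjusted p under 0.05. Skeletal muscle markers summed to 157800, 122000 and 124300 CPM in the 3 day 52 libraries and to 134100 to 168300 CPM after saline, and all members to 28180, 25110 and 24650 CPM against 28620 to 31060 CPM. Libraries 2 and 3 of day 52 were below all saline libraries in both sums. Library 1 was below them in the member sum only, with muscle markers inside the saline range. The part of muscle content in the shift was not tested. Complexes I, III and V had medians of -0.20, -0.20 and -0.18, complex IV -0.16 and complex II -0.10. On TPM the median was -0.05 for members and 0.12 for all genes. Day and collagenase cannot be told apart here, since the saline libraries are of day 38.

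Cox4i2 was at 6.167, 6.062, 5.646 and 5.774 CPM after saline at day 38, at 4.436, 4.153 and 4.006 CPM after collagenase at day 38 and at 3.311, 2.837 and 2.616 CPM at day 52. The 3 groups did not overlap. The log2 difference was -1.02 ± 0.14 (adjusted p 0.00484) at day 52 and -0.49 ± 0.13 (adjusted p 0.0888) at day 38, and -0.53 ± 0.14 (adjusted p 0.0863) between the collagenase groups. On TPM the day 52 difference missed the threshold, and it passed in the other alternatives tried. Its share of the Cox4 pair's TPM was 0.727% ± 0.018 (SD, n = 4) after saline, 0.493% ± 0.036 (n = 3) at day 38 and 0.406% ± 0.033 (n = 3) at day 52. Pericyte genes were also lower after collagenase than after saline of day 38. Unlike Cox4i2, their sum overlapped between the collagenase groups. Their summed level was 928.6 to 1068 CPM after saline, 669.0 to 702.1 at day 38 and 658.7 to 684.6 at day 52, and Rgs5, Kcnj8 and Notch3 were called lower at day 52 at -0.80, -0.996 and -0.71. The pericyte list has 6 genes and was chosen after the values were seen. Endothelial markers summed to 612.5 to 761.4 CPM after saline and 389.4 to 478.7 at day 52. In the day 28 saline libraries, which were single-end, pericyte genes summed to 557.1 to 631.1 CPM and endothelial markers to 430.1 to 524.8 CPM. Cox4i2 made up 0.399% ± 0.058 (n = 4) of its pair's TPM in them, so the day 38 saline group was the higher of the saline groups in each. The part of either cell type in the Cox4i2 value was not tested.

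Among members that missed the threshold at day 52, Atp5d, the delta subunit of the ATP synthase rotor, stood at -0.37 ± 0.08 (adjusted p 0.0517). Sdhb, the iron-sulfur subunit of complex II, was at 380, 398.8, 351.5 and 353.4 CPM after saline and 289.8, 294.6 and 294.4 CPM at day 52, a difference of -0.34 ± 0.10 (adjusted p 0.121). The Sdhb difference did not pass, although the groups did not overlap. Between collagenase at day 52 and day 38 no member was called by edgeR, where 0.0956% of all genes were called. DESeq2 called 7 members, where it called 5.72% of all genes. By edgeR 20 members had an unadjusted p under 0.05, and 72 of 82 were below 0. On TPM 76 of 82 were above 0, with a median of 0.19 for members and 0.26 for all genes.

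**Figure D4:**
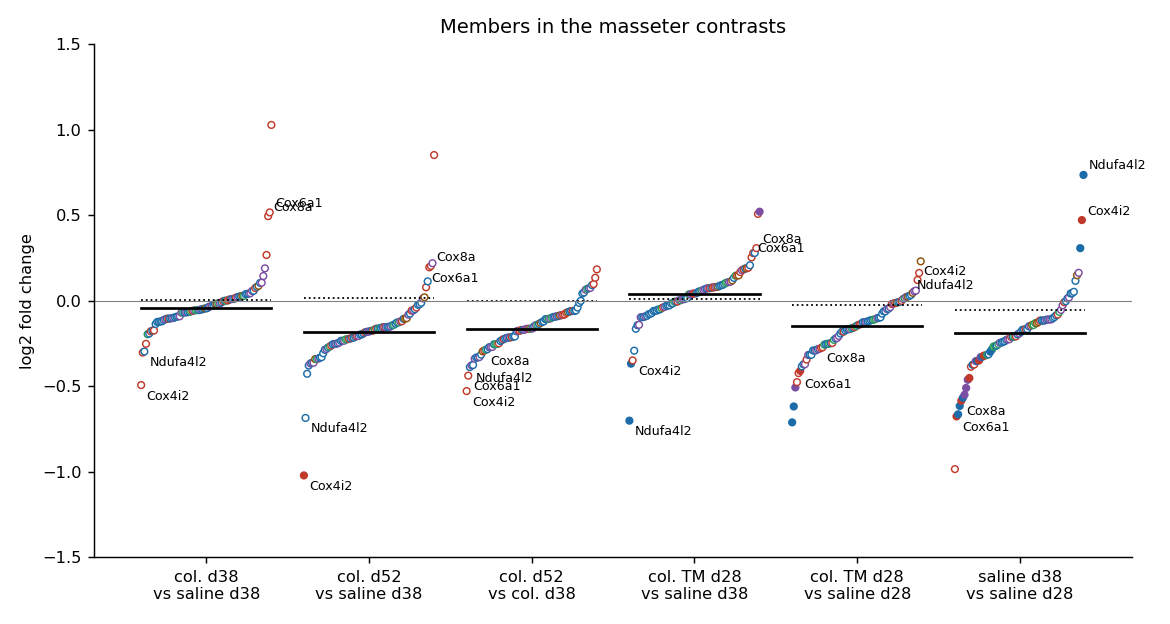
Log2 differences of the members in 6 masseter comparisons (vertical axis), ordered within each and coloured by complex, filled where the adjusted p was under 0.05. Solid lines are the median of the members and dotted lines that of all genes; Ndufs5 lies above the axis in the last pair of comparisons, which cross read layouts, and the member median is below that of all genes in 5 of the 6.

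The masseter libraries of day 28 whose mice had collagenase in the temporal muscle had no saline group of that site, so they were set beside both masseter saline groups. Against saline of day 38, of the same layout, 1 member was called higher and 2 lower, where 10.9% of all genes were called. Atp5sl, now named Dmac2, was at 47.75, 46.51 and 50.02 CPM after collagenase and at 30.64, 32.61, 34.33 and 36.51 CPM after saline, a log2 difference of 0.52 (adjusted p 0.00694), with no overlap. Ndufa4l2 was at 11.74, 11.45 and 15.9 CPM against 20.93, 20.89, 22.87 and 20.06 CPM, at -0.70 (adjusted p 0.0249), also with no overlap. The median was 0.04 for members and 0.01 for all genes. Group means of Atp5sl were 35.21 TPM after temporal collagenase, 23.39 TPM in saline of day 38 and 36.7 TPM in saline of day 28. For Ndufa4l2 they were 28.2, 43.56 and 25.89 TPM in the same order. For both genes the temporal collagenase group was thus nearer to saline of its own day, which is of the other layout. From the neighbouring lists, the mitochondrial isocitrate dehydrogenase Idh2 was called higher at 1.30 (adjusted p 5.67e-04), as were the receptors Esrrb (1.45) and Esrrg (0.96) and the fatty acid oxidation enzymes Echs1 (0.54) and Hadh (0.45). These groups differed in day as well as in treatment, and slow and oxidative fibre markers summed to 2393 to 3185 CPM against 117.4 to 275.5.

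Against saline of day 28, of the same day but another layout, 1 member was called higher, Ndufs5, and 4 lower, where 2.95% of all genes were called. Ndufc2, an accessory subunit of the membrane arm of complex I, was at 109.3, 118.7 and 118.3 CPM after collagenase and at 190, 162.5, 215.2 and 188 CPM after saline, a log2 difference of -0.71 (adjusted p 9.47e-04). Ndufb6, of the same arm, was at -0.62 (adjusted p 0.0053), Atp5j, the coupling factor 6 of the ATP synthase stalk, at -0.51 (adjusted p 0.00974) and Cox4i1, the common isoform of subunit 4, at -0.41 (adjusted p 0.0326). With effective length as an offset 16 members were higher and none lower, where 2.56% of all genes were called. The second of the day 28 saline libraries had a summed member level of 27360 CPM where the other 3 were at 35100 to 36620. It also had the lowest skeletal muscle marker sum, 91610 CPM against 113900 to 144000, and the highest brown adipocyte sum, 265.9 CPM against 3.181 to 66.28. Without it the counts gave 15 lower and 1 higher, where 3.04% of all genes were called.

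The 2 masseter saline groups, day 38 and day 28, differed in layout as the dura groups did. On the counts 4 members were higher and 21 lower at day 38, where 24.6% of all genes were called. The largest falls were in Cox6a1, Ndufb3, Ndufc2, Cox8a and Ndufb6, by 0.68, 0.66, 0.62, 0.58 and 0.57 on the log2 scale. Among the members called higher were Ndufs5, Ndufa4l2 at 0.74 (adjusted p 0.00637) and Cox4i2 at 0.47 (adjusted p 0.014). With the offset 31 were higher and 4 lower, where 23.5% of all genes were called, and with the length trend removed 14 higher and 9 lower, where 23.4% were called. On the counts only, 12 of 17 fatty acid oxidation genes were lower and none higher, and 24 of 38 ribosomal protein genes were lower and 2 higher. Leaving out the second day 28 library gave 46 members lower and 4 higher, where 3200 of 14550 genes were called.

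This pair was set against the dura pair of the same layouts. Of the 82 members, 34 had the same sign in both differences, and 10 of the 13 called lower in dura were below 0 in masseter, 5 of them called lower. In the masseter pair the median was -0.20 for members under 1000 bases and -0.15 for longer ones, so a value below 0 was common there. Shares of all genes with the same sign or called in both were not computed. The difference between the 2 differences was called for 8 members, 2 of them higher in the dura difference and 6 lower, where 16.5% of all 16896 genes were called. The 6 were Ndufa4l2, Ndufv3, Cox4i2, Ndufa13, Atp5d and Ndufs5. The masseter pair also differed in day, and the titles of the day 28 saline libraries bear an F that those of day 38 do not.

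Ndufs5, an accessory subunit of complex I at chr4:123712710-123718186 (GRCm38.p6), was uncertain in its own counts. It was listed at 0 counts in all 4 masseter saline libraries of day 28, in 2 of 4 dura libraries given saline in the temporal muscle and in 1 of 6 given saline at the unnamed site, all single-end. No paired-end library was at 0. BC002163, a processed copy that shares 21.7% of the 50-base windows of Ndufs5 transcripts, had counts in every library. Ndufs5 had 0% to 28.8% of the summed counts of both genes in single-end libraries, 33.3% to 52.7% in the collagenase dura and 26.0% to 39.4% in paired-end masseter. The summed level was 149, 130.9, 158.8 and 157.2 CPM in masseter saline of day 28 and 145, 148.3, 135.2 and 135.9 CPM at day 38, and the groups overlapped. In dura the sum was 72.19, 74.69, 75.8 and 73.78 CPM with temporal saline and 66.39, 82.13 and 108.5 CPM (lowest, median, highest) after collagenase. The calls for Ndufs5 given above are those of its own counts, and how reads were divided between the pair was not tested. Of the 84 members, 37 shared a 50-base window with another annotated gene and 17 shared over 10%. In 7 of them a gene sharing windows was itself counted in the files: Ndufs5, Atp5o (17.2% of windows), Cox7c (15.9%), Ndufc1, Atp5g1, Atp5g2 and Atp5h. Cox6b2, Cox4i2, Ndufa4l2, Cox6a2, Cox7a1, Cox8a and Cox8b shared none, Ndufa13 shared 1.41%, and Cox6a1 and Cox7a2l shared 12.3% and 17.8% with genes not counted in the files.

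**Figure D5:**
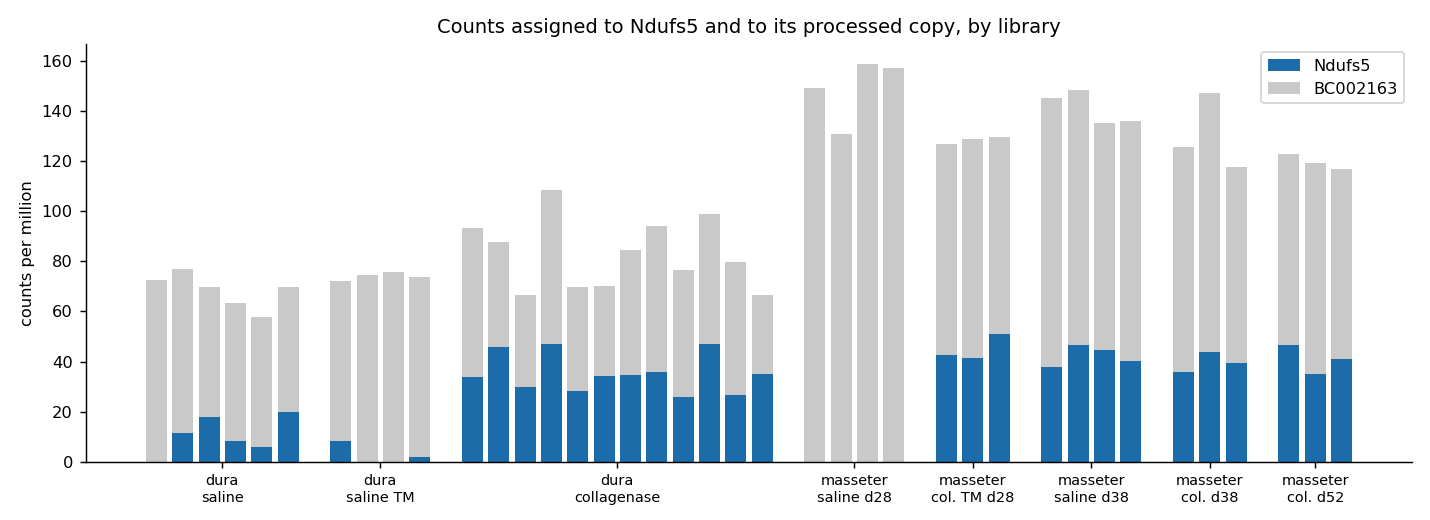
CPM (vertical axis) assigned to Ndufs5 (blue) and to its processed copy BC002163 (grey, stacked) in each of the 39 libraries, in groups. The blue part is 0 in all 4 masseter saline libraries of day 28 while the stacked total there, 130.9 to 158.8, overlaps that of masseter saline at day 38.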

How the data were processed

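Poly(A)-selected, strand-marked libraries were sequenced as single-end or paired-end reads, per the labels' protocols. Trim Galore and RSEM with mm10 were used, per the submitters' processing notes; sources used here do not name the aligner, annotation release or strand option. Per the file headers, RSEM's expected counts (estimated reads per gene, unscaled) and its TPM (per length, scaled to the same total in every library) were deposited by the authors. FPKM columns were left unused. Layout was inferred from median length minus effective length (49.5 to 49.6 bases, single-end; 212.5 to 237 bases, paired-end; divided at 60), over genes with over 50 counts.

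Expected counts were rounded. Each tissue was fitted with all its groups in edgeR 4.0.16 (R 4.3.3; filterByExpr, TMM, quasi-likelihood test, Benjamini-Hochberg over all genes tested, called at adjusted p under 0.05). The tissue comparison was fitted on the 14 single-end control libraries and the difference of differences on all 39. CPM used TMM library sizes within a tissue, so levels across tissues are given as TPM. Alternatives were DESeq2 1.42.0, limma 3.58.1 on log2(TPM + 1), RLE scaling, no filter on low counts, effective length as an offset, a removed length trend, the compared groups alone, a replicate block on shared title numbers, single libraries left out, and collagenase dura libraries 1, 4, 6, 7 and 8 left out. The fits were tested on simulated data.

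Within groups, chi-square per gene was 14.9 to 568 over 108 library pairs, so each library counted once. Library numbers follow accession order except in dura saline. Members and lists were chosen with earlier results of these data known. Besides the isoform pairs, each comparison names up to 5 called members with the largest rise and 5 with the largest fall at a group mean of at least 5 CPM, up to 4 genes with the smallest p of each other list, and the members most and least like the mean member; in dura all called members are named; other names were chosen after their values were seen. Some results are not reported here. Promoters and gene positions are RefSeq's, on GRCm38.p6.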

Additional observations from a re-analysis of the deposited data

Results flagged for a closer look

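Library values were screened in 83 groupings of 4 to 10 libraries, and 6 had a library far from the others, where chance gives about 1 in 20. In masseter saline of day 28, library 2 was lowest for the summed level of all members (27360 CPM, next 35100), of complex V (10240 CPM, next 13190), for Cox7a1 (230.9 CPM, next 362.9) and for Cox8b (286.6 CPM, next 406.5). In masseter saline of day 38, library 2 was highest for complex II (2214 CPM, next 2070) and for Cox8a (49.1 CPM, next 40.35).

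The difference between paired-end and single-end groups differed between dura (collagenase against saline in the temporal muscle) and masseter (saline of day 38 against day 28) for 8 members, by edgeR's test of the difference itself. Ndufa4l2 differed by -1.52, Cox4i2 by -0.98, Ndufv3 by -0.97, Ndufa13 by -0.64 and Atp5d by -0.64 on the log2 scale, lower in the dura difference. Ndufb3 (0.58) and Ndufc2 (0.57) were higher in it. The fitted Ndufs5 value of -9.73 rests on libraries listed at 0 and depends on the prior count, so it gives no size.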

How the results depend on the processing

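Counts of members called moved by over 1.5 times in these settings; where both directions occur, higher is given before lower. For dura collagenase against saline in the temporal muscle (14 called), the effective length offset gave 27 (23 and 4), the compared groups alone 9, TPM 28 (22 and 6), leaving out libraries 1, 4, 6, 7 and 8 gave 32 (1 and 31), the same with the offset 33 (22 and 11) and with the length trend removed 26 (14 and 12); the last pair of settings was added after seeing the data. Against saline (15 called) the same settings gave 37 with the offset (33 and 4), 37 with the trend removed (35 and 2), 34 on TPM (29 and 5), 34 without the 5 libraries (0 and 34), and 39 (30 and 9) and 26 (20 and 6) with offset and trend added. The difference of differences (8 called) gave 18, 19 and 13 in these last 3 settings. Between the dura saline groups (0 called), DESeq2 gave 2, the trend 1 and the groups alone 10 (4 and 6). For masseter collagenase at day 38 (0 called), DESeq2 gave 1. At day 52 against saline (1 called), DESeq2 gave 11, the offset 2, the trend 4, RLE 2 and TPM 0, and against day 38 (0 called) DESeq2 gave 7. After temporal collagenase against saline of day 28 (5 called), DESeq2 gave 9, the offset 16, the trend 3, TPM 3 and the groups alone 2; against saline of day 38 (3 called), TPM gave 0. Between the masseter saline groups (25 called), the groups alone gave 10 and TPM 13. The offset and trend use length and layout directly; otherwise the cause was not tested.

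Leaving out 1 library gave 9 to 20 calls for dura collagenase against saline in the temporal muscle (20 without collagenase library 4, 9 without saline library 2) and 9 to 20 against saline (20 without collagenase library 4, 9 without saline library M3), 0 to 1 between dura controls, 0 to 1 for collagenase at day 38, 1 to 2 at day 52, 0 to 0 for day 52 against day 38, 3 to 16 after temporal collagenase against saline of day 28 and 1 to 3 against day 38, 13 to 50 between masseter saline groups (50 without day 28 library 2, 13 without day 38 library 3), 77 to 79 between tissues and 6 to 10 for the difference of differences.

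Over 77 single-member results and 1680 alternative values, 1371 kept direction and side of the threshold, 282 lost the call and 27 changed sign. Sign changes in dura against saline in the temporal muscle were Cox6a1 (0.06 with the offset, 0.10 with the offset and without the 5 libraries, 0.01 on TPM), Cox8a (0.01 with the offset and without the 5 libraries), Uqcrb (0.02), Uqcrh (0.05) and Atp5h (0.05) with the offset, and Uqcr11 (0.17 with the offset, 0.06 with it and without the 5 libraries, 0.09 on TPM). Against saline they were Cox6a1 (0.22 with the offset, called higher, 0.17 with the trend removed, 0.21 on TPM, and 0.25 and 0.12 with offset and trend without the 5 libraries, the former called higher), Ndufa7 (0.10 with the offset, 0.10 with it and without the 5 libraries, 0.08 on TPM), Uqcrh (0.17 with the offset, 0.12 with the trend removed, 0.14 on TPM, 0.04 with the offset and without the 5 libraries) and Atp5j (0.06 with the trend removed). Between masseter saline groups they were Atp5g3 (0.03 with the offset) and Ndufa4 (0.25 with the offset, 0.07 on TPM), and between tissues Cox7a2l (-0.40 on TPM).

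Titles share the numbers 1 to 4 between groups in 3 comparisons. With these numbers as a replicate block, added after seeing the data, dura collagenase against saline in the temporal muscle gave 14 (8 and 6; the same libraries with no block gave 8), the masseter saline groups 20 (4 and 16) and the tissues 79 (75 and 4). Same-numbered libraries correlated in their deviations from the group means at -0.18 to 0.20, -0.21 to 0.24 and -0.13 to 0.02. In none of the 3 comparisons did every library correlate best with its own number. With numbers 1 to 4 only, across layouts, days or tissues, this cannot exclude a pairing. The difference of differences has no fit of the groups alone.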
